A study of Rattus norvegicus with 31 samples.

Results

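The proteasome genes were read here in rat tail motor neurons as 47 of the 12913 probe sets tested, which stand for 41 of the 9769 genes with a probe set of their own. A probe set was taken when the array's annotation gave it a single gene symbol beginning Psma to Psmg followed by a digit. Of the 47, 12 report subunits of the core particle, 19 subunits of the regulatory particle, 3 inducible catalytic subunits, 5 activators, 1 an inhibitor and 6 assembly chaperones. The last one, Psmc3ip, answers to the same spelling but encodes a factor of meiotic recombination, and it was called on no day. The neurons came from adult male Wistar rats (segments S3 to S4), all of which had their tail motor neurons filled with the retrograde tracer Fluoro-Gold before the cells were cut out by laser. Control animals (n = 4) were uninjured, and Spi-2 (n = 6), Spi-7 (n = 5), Spi-21 (n = 8) and Spi-60 (n = 8) animals were killed 2, 7, 21 and 60 days after the cord had been transected at S2. Each array holds pooled neurons of 1 animal, amplified in successive rounds, and the unit is the RMA log2 signal, and differences are differences of log2 signals. Arrays of the Control and early groups were made for 1 study and those of Spi-21 and Spi-60 for an earlier one, so the late groups and their study cannot be told apart in any comparison with Control. Probe sets annotated with several symbols were left out, 5 of them with a proteasome symbol among theirs, and Psmb6 and Psme3 were therefore not measured. Psma2, Psma8, Psmb11, Psmd10, Psmd11 and Psmd13 had no probe set of their own either.

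The proteasome is the protease complex that degrades proteins marked with ubiquitin in the cytosol and nucleus. Its core particle is a barrel of stacked rings, in which outer alpha rings close the entrance and inner beta rings carry the proteolytic sites. A regulatory particle caps the barrel, where non-ATPase subunits bind and trim the ubiquitin chain and a ring of ATPases unfolds the substrate and opens the gate. Dedicated chaperones build both particles, and interferon can replace the catalytic beta subunits with inducible ones that favour peptides for antigen presentation.

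The motor neuron label was checked against 9 marker genes, of which 7 were measured and 6 lay above the array median, while Isl1 did not. Of the 7, Prph was higher on all 4 days (0.59 ± 0.19 to 0.79 ± 0.18) and Slc5a7, the choline transporter, lower at days 2, 21 and 60 (−1.18 ± 0.30, −1.11 ± 0.29 and −1.06 ± 0.29), and the rest were not called. Marker lists of other cells moved with the groups. The summed level of the microglia and macrophage markers (log2 of the summed linear signal) ran from 8.97 to 9.26 in Control and from 9.87 to 11.07 in Spi-2 animals, and at days 7, 21 and 60 from 9.39 to 10.65, 8.91 to 11.07 and 9.32 to 11.13. At day 2, 4 of the 10 measured markers of that list were higher than Control, against 3.9% of all probe sets. Itgam and Ptprc, at mean log2 signals of 5.31 and 5.11, were the lowest of the list. The summed level of the oligodendrocyte markers ran from 12.30 to 13.28 in Control, and at days 2, 7, 21 and 60 from 11.81 to 12.82, 11.80 to 12.89, 11.48 to 12.41 and 11.82 to 13.03. All 7 of its measured genes gave differences below 0 on every day, and 1, 1, 4 and 2 were called lower at days 2, 7, 21 and 60, Mbp by −2.14 ± 0.31 at day 2. Among all probe sets 4.98%, 1.67%, 10.7% and 9.89% were called lower on these days. Of the astrocyte markers Gfap was higher at days 2, 21 and 60 (2.45 ± 0.42 at day 2) and Slc1a3 lower at day 21. The part of these cells in the lower proteasome members was not tested. The Affymetrix probes at the 3′ and 5′ ends of GAPDH measure how far the amplified RNA was shortened, and their log2 difference was 1.80 to 2.50 in Control, 2.30 to 3.38 in Spi-2, 2.38 to 3.33 in Spi-7 animals, and in the late groups 1.13 to 3.54 at day 21 and 2.99 to 3.97 at day 60. Spi-7 replicate 5 and Spi-21 replicates 1 to 3 had the narrowest spread of log2 signals (interquartile range 1.74 to 1.79). In such samples fewer cells of a type and less RNA per cell cannot be told apart.

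Over the 5 groups 11 of the 47 proteasome probe sets (9 genes) had different group means by limma's F-test (false discovery rate 0.02), against 16.2% of all probe sets. Of the 11, 9 report the regulatory particle, 1 the core particle (Psmb7) and 1 a core assembly chaperone (Psmg1). The smallest p of the family belonged to Psmc5, which stood at rank 18 of the 12913. In the contrasts with Control (adjusted p under 0.05), 8 members were lower and 4 higher at day 2, where 4.98% and 3.9% of all probe sets were called. At day 7, 3 were lower and 0 higher, against 1.67% and 0.914%, and 3 members were higher at an unadjusted p under 0.05, against 6.64% of all probe sets. At day 21, 12 were lower and 2 higher, against 10.7% and 5.94%. At day 60, 12 were lower and 4 higher, against 9.89% and 7.2%. No overlap with the Control range was seen for 9, 8, 6 and 8 members on the lower side at days 2, 7, 21 and 60, against 5.33%, 5.45%, 4.98% and 7.46% of all probe sets. On the higher side there were 1, 2, 0 and 3, against 4.06%, 3.78%, 2.35% and 5.33%. In all, 16 members were lower and 8 higher on at least 1 day and 23 were called on none. With a further quantile normalization the lower and higher members numbered 5 and 4 at day 21 and 9 and 6 at day 60, where 7.85% and 8.54%, and 7.27% and 8.94%, of all probe sets were called. The map of all members shows that most of the lower calls sat in the regulatory particle and in Psmg1.

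**Figure D1:**
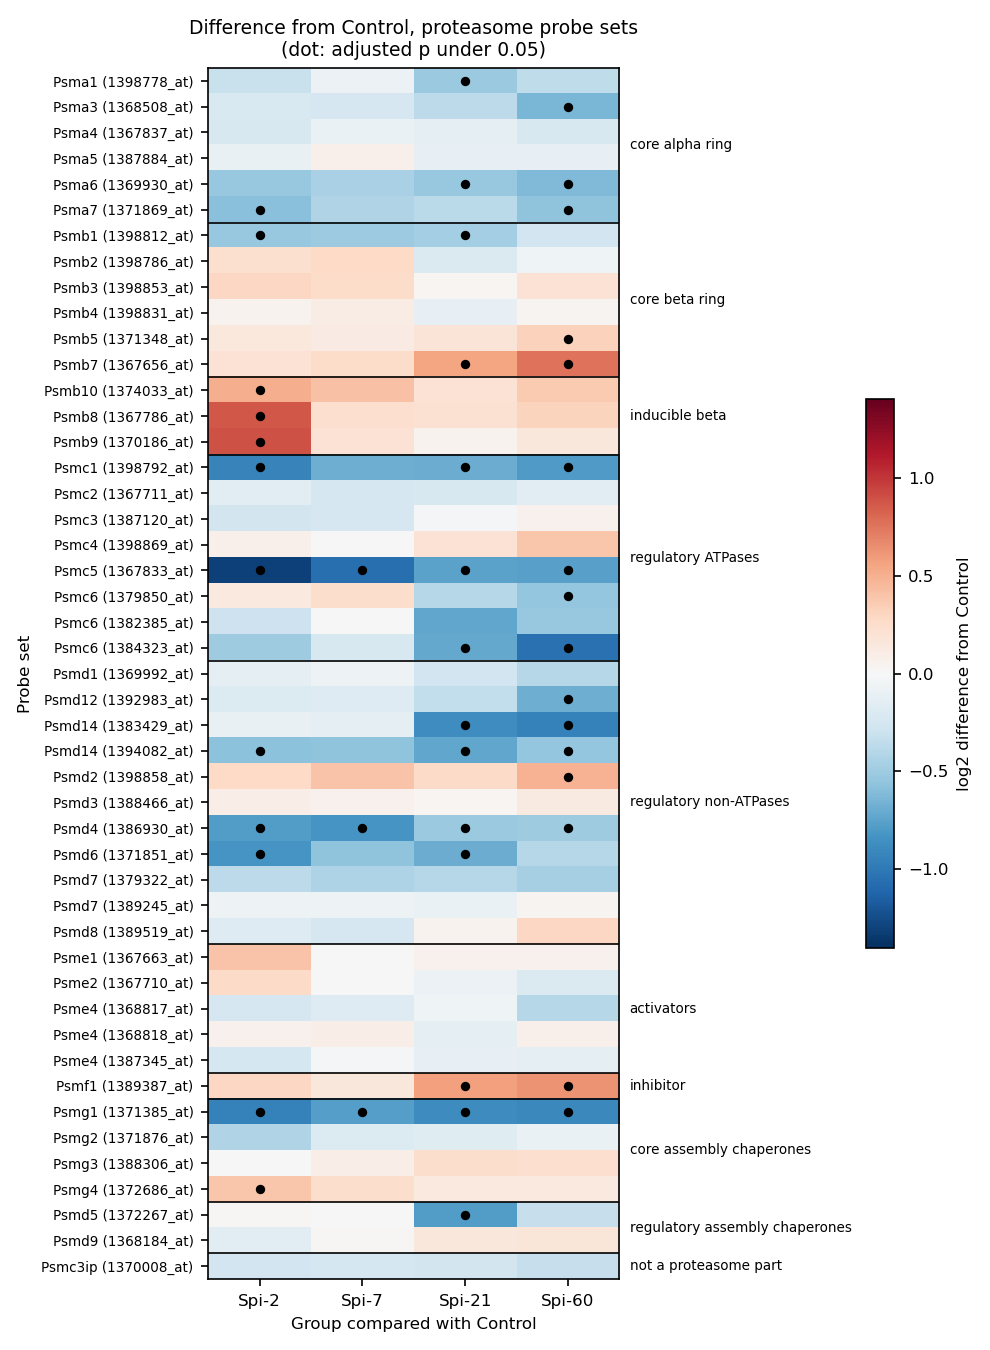
Log2 difference from Control (colour) of the 47 proteasome probe sets (rows, by class) in the Spi-2, Spi-7, Spi-21 and Spi-60 animals (columns), with a dot where the adjusted p was under 0.05. The row of Psmc5 is blue with 4 dots, the 3 inducible subunits are red with a dot at day 2, and Psmb7, Psmd2 and Psmf1 are red late.

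Probe sets lower than Control were found in the core particle at days 2, 21 and 60 and in the regulatory particle on all 4 days. Of the 12 core probe sets, 2, 0, 3 and 3 were lower than Control at days 2, 7, 21 and 60, and 0, 0, 1 and 2 were higher. Of the 19 regulatory probe sets, 5, 2, 7 and 8 were lower and only Psmd2 was higher, at day 60. The regulatory subunits Adrm1 and Sem1 fall outside the family spelling, are not among the 19 and are given below. Among all probe sets 4.98%, 1.67%, 10.7% and 9.89% were lower at days 2, 7, 21 and 60, and 3.9%, 0.914%, 5.94% and 7.2% higher. The median log2 difference of the core probe sets was −0.16, −0.00, −0.16 and −0.17 on these days and that of the regulatory ones −0.19, −0.23, −0.40 and −0.47, where the median of all probe sets stayed between −0.00 and 0.01. With 1 probe set per gene (15 regulatory genes) the regulatory medians were −0.15, −0.18, −0.26 and −0.39, so that at day 2 the regulatory median did not lie below that of the core. These medians are descriptions of lists of unequal size, in which Psmc6 counts with 3 probe sets, and no difference between the particles was tested.

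The same was seen animal by animal. For each animal the mean of the 12 core probe sets was subtracted from the mean of the 19 regulatory ones, after each probe set had been centred on its Control mean. This difference ran from −0.06 to 0.07 in Control, from −0.38 to −0.02 in Spi-2, from −0.25 to −0.12 in Spi-7, from −0.35 to −0.12 in Spi-21, and between −0.26 and −0.04 in Spi-60 animals. The group means of the injured animals were close to each other, at −0.19 ± 0.13 (SD, n = 6), −0.20 ± 0.05 (SD, n = 5), −0.19 ± 0.07 (SD, n = 8) and −0.21 ± 0.07 (SD, n = 8). Of the 27 injured animals, 25 lay below the lowest Control animal, and Spi-2 replicate 1 and Spi-60 replicate 6 did not. Without Psmc5 the number was again 25. With 1 probe set per gene it was 21 of 27, and Spi-21 replicates 1 to 3 and Spi-60 replicate 2 then also reached into the Control range. The group means were then −0.16 ± 0.10, −0.18 ± 0.07, −0.12 ± 0.08 and −0.12 ± 0.07 (SD) in Spi-2, Spi-7, Spi-21 and Spi-60 animals, smaller in the late groups. The difference is small beside the spread of single members, and no test was run on it.

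The core particle itself was divided. The mean of the 6 alpha ring probe sets less that of the 6 beta ring probe sets ran from −0.14 to 0.13 in Control, from −0.63 to −0.08 in Spi-2, from −0.43 to −0.21 in Spi-7, from −0.57 to −0.08 in Spi-21, and between −0.95 and −0.31 in Spi-60 animals. Again 25 of the 27 injured animals lay below every Control animal, the exceptions being Spi-2 replicate 1 and Spi-21 replicate 7. This split was noticed in the data and is given as a description. The Spi-60 animals, which reached lowest, were also those with the largest GAPDH difference, and the part of RNA length in the split was not tested. The group means of the alpha ring were −0.33, −0.20, −0.34 and −0.42 at days 2, 7, 21 and 60. Those of the regulatory probe sets were −0.32, −0.25, −0.36 and −0.33, and those of the beta ring 0.06, 0.08, −0.00 and 0.17. The regulatory probe sets thus lay below the beta ring on each day. They lay close to the alpha ring at days 2, 7 and 21, on either side of it, and further above it at day 60.

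**Figure D2:**
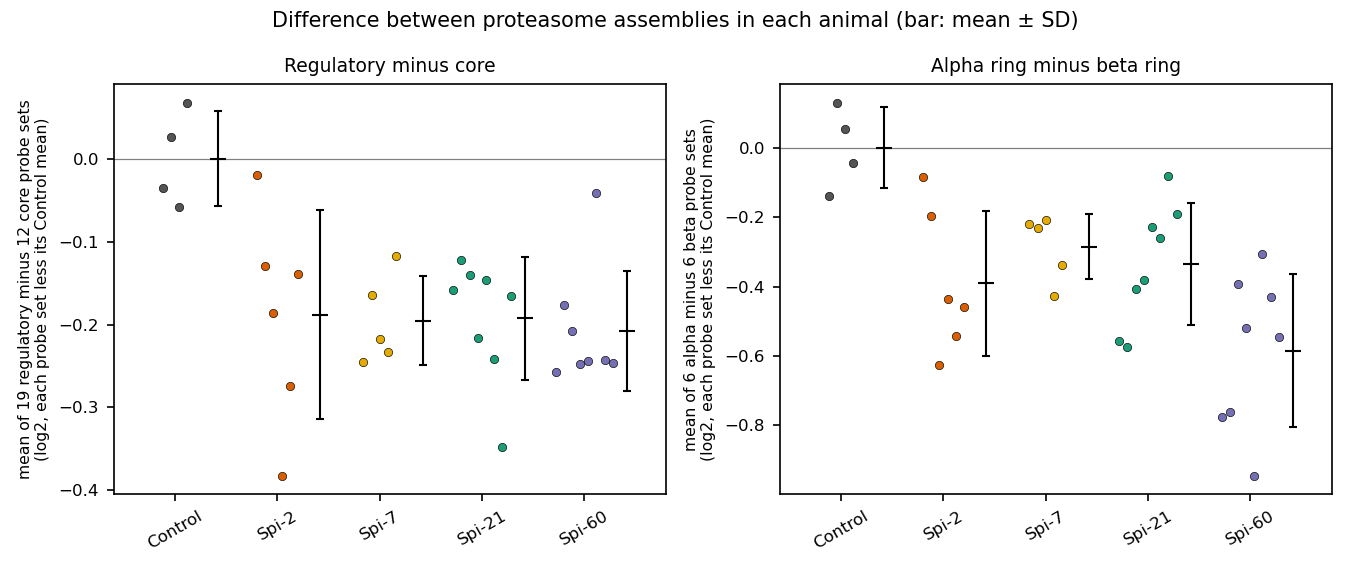
Mean centred log2 signal of the regulatory probe sets less that of the core probe sets (left) and of the alpha ring less the beta ring (right), 1 point per animal in each group on the x axis, with mean ± SD beside the points. The Control points average 0 because each probe set was centred on its Control mean. In both panels 25 of the 27 injured animals lie below all Control points.

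Among the ATPases, Psmc5 (1367833_at), a subunit of the ring that unfolds substrates, was lower on all 4 days. The 4 Control animals gave log2 signals of 9.61, 9.38, 9.26 and 9.51. The Spi-2 animals gave 7.82 at the lowest, 8.00 at the median and 8.67 at the highest, and the 5 Spi-7 animals 8.58, 8.41, 8.28, 8.37 and 8.27. Spi-21 animals ran from 8.17 over a median of 8.77 to 9.02, and Spi-60 animals from 8.27 over 8.73 to 8.94. No injured animal of any group reached the lowest Control animal. The difference from Control was −1.31 ± 0.16 (SE of the fit; 0.403-fold) at day 2, −1.06 ± 0.16 (0.480-fold) at day 7, −0.75 ± 0.15 (0.593-fold) at day 21 and −0.76 ± 0.15 (0.588-fold) at day 60. The adjusted p of limma was 4.85e-06, 0.000374, 0.00133 and 0.000812 in turn, and the F-test over Control, Spi-2 and Spi-7 alone gave 0.000425. None of the 15 to 19 other processings or left-out animals tried for each day ended one of these calls, the weakest of them having an adjusted p of 0.0282.

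The promoter of Psmc5 is shown next to that of Psmb7, a catalytic subunit that was higher late. These members were chosen because they moved furthest in opposite directions among the regulatory and core genes. Promoters of 37 of the 41 genes were matched by gene ID to a RefSeq table of the rat build GRCr8 (250 bases before to 50 after the start). Those of Psma7, Psmd6, Psmd12 and Psmd14 were not matched. Searched on both strands were TGANNNNGC, the core of antioxidant response elements at which Nfe2l1 and Nfe2l2 bind, CCAAT, the GC box GGGCGG, the core of interferon-stimulated response elements (GAAA, any NN, then GAAA), and TTCNNNGAA, the gamma-activated site of STAT factors. Matches are in capitals, and neighbouring matches can abut or overlap (a CCAAT on the other strand reads ATTGG). The windows lie at chr10:91687303-91687602 (+ strand) and chr3:42827421-42827720 (− strand).
Psmc5: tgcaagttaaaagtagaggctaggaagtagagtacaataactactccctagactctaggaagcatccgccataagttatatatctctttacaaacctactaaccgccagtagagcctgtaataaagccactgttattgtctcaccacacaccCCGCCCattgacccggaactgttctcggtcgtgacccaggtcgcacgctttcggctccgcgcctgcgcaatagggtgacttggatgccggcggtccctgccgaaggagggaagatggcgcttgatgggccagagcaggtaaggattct
Psmb7: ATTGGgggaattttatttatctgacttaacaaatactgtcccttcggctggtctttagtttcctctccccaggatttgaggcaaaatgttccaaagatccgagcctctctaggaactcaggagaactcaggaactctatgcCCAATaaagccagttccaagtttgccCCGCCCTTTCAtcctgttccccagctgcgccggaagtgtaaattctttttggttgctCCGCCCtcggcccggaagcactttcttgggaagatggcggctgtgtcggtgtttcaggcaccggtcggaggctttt
The Psmc5 window held 1 GC box and no other of these motifs, whereas that of Psmb7 held 1 TGANNNNGC, 2 CCAAT and 2 GC boxes. TGANNNNGC stood in 72.7% of the 11 core promoters and 50.0% of the 12 regulatory ones, against 40.5% of all 33469 promoters and 43.2% of the 8736 whose genes are on the array. CCAAT stood in 72.7% and 33.3%, against 37.5% of all and 37.3% of those on the array, and the GC box in 81.8% and 66.7%, against 33.1% and 56.5%. A match says only that these letters occur in the window.

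Psmc1 (1398792_at), the ATPase whose tail helps to open the gate of the core, had log2 signals of 9.53, 9.38, 9.44 and 9.65 in Control. Spi-2 animals lay between 8.17 and 8.99 (median 8.62), Spi-7 animals at 9.14, 8.87, 9.10, 8.67 and 8.31, Spi-21 animals between 8.28 and 9.31 (median 8.79) and Spi-60 animals between 8.13 and 9.30 (median 8.81). No group of injured animals overlapped Control. Psmc1 was lower at day 2 (−0.93 ± 0.20, adjusted p = 0.00357), day 21 (−0.69 ± 0.19, adjusted p = 0.0143) and day 60 (−0.79 ± 0.19, adjusted p = 0.0052). At day 7 the difference of −0.68 ± 0.21 did not pass (adjusted p = 0.0777). The day 21 call was lost without Spi-21 replicates 1 to 3 (−0.47, adjusted p = 0.142) and the day 60 call with the 3′ covariate (−0.65, adjusted p = 0.160).

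Psmc6, another ATPase, is read by 3 probe sets, which moved together over the animals once group means were removed (r between 0.69 and 0.88, 31 arrays). For 1384323_at the Control signals were 9.48, 10.10, 9.94 and 9.94. Spi-21 animals gave 8.72 to 9.68 (median 9.12) and Spi-60 animals 8.25 to 9.30 (median 8.86), so that only the latter group stood clear of Control. It was lower by −0.71 ± 0.22 at day 21 (adjusted p = 0.0236) and by −1.05 ± 0.22 at day 60 (0.484-fold, adjusted p = 0.00143). The probe set 1379850_at was lower at day 60 (−0.55 ± 0.17, adjusted p = 0.0226), and 1382385_at was called on neither day (−0.72 ± 0.28 and −0.54 ± 0.28). Leaving out Control replicate 2, 3 or 4 ended the day 21 call (−0.69 to −0.64, adjusted p 0.0577 to 0.0899), as did leaving out Spi-21 replicates 1 to 3 (−0.59, adjusted p = 0.141). The day 60 call of 1379850_at was lost without Control replicate 2 or 4 (−0.52 to −0.41, adjusted p 0.0623 to 0.136). With the 3′ covariate the day 60 calls of 1384323_at (−0.90, adjusted p = 0.0834) and 1379850_at (−0.36, adjusted p = 0.386) were both lost. RefSeq names 2 pseudogenes of Psmc6, and cross-hybridisation was not tested. The remaining ATPases, Psmc2, Psmc3 and Psmc4, were called on no day, with differences between −0.26 and 0.38.

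**Figure D3:**
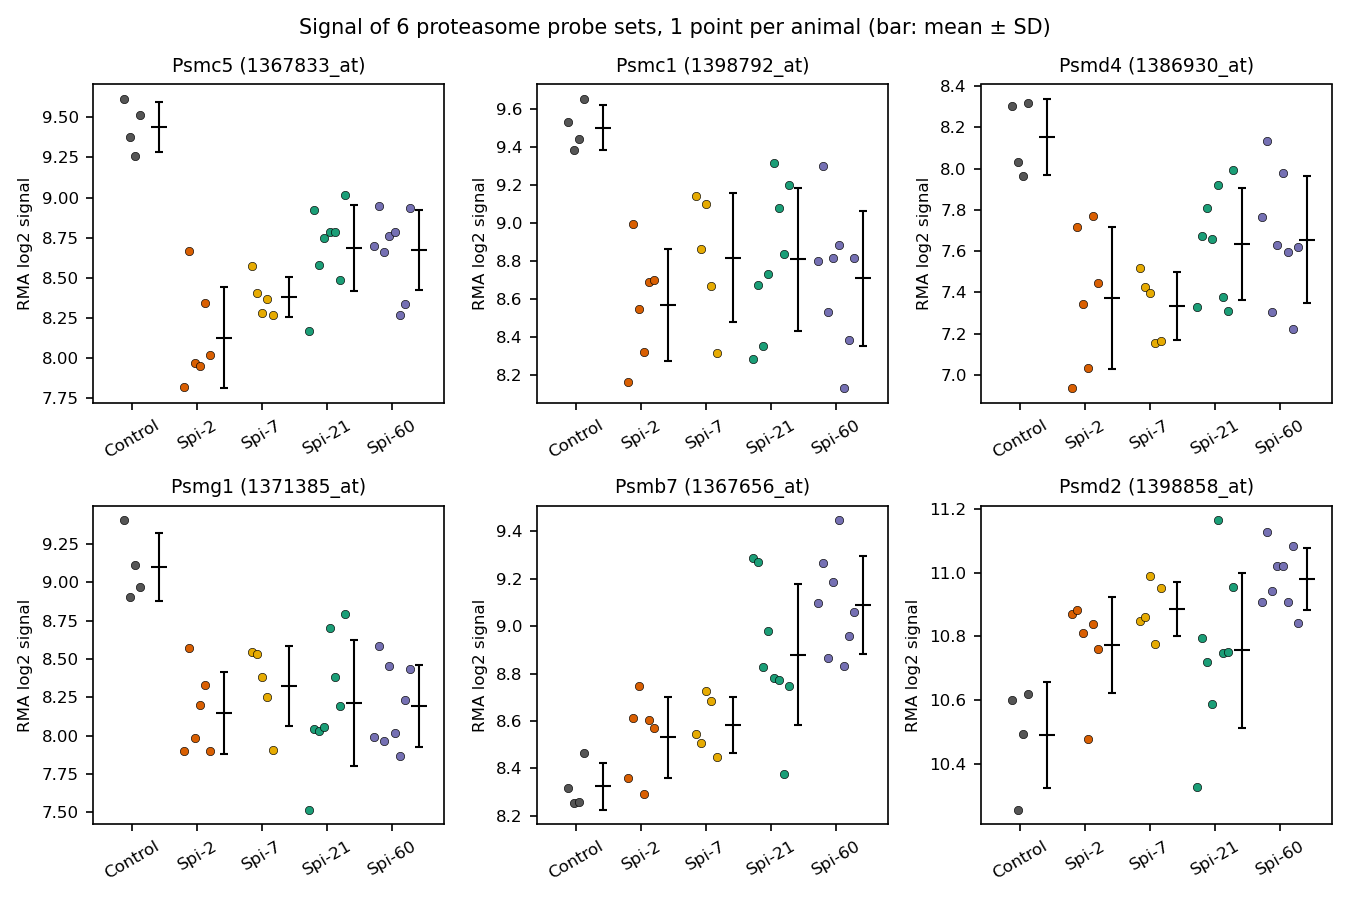
RMA log2 signal (y axis) of Psmc5, Psmc1, Psmd4, Psmg1, Psmb7 and Psmd2 by group (x axis), 1 point per animal with mean ± SD; each panel has its own scale. All injured animals lie below Control for Psmc5, Psmc1 and Psmg1, and all Spi-60 animals lie above Control for Psmb7 and Psmd2.

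Of the non-ATPase subunits, Psmd4 (1386930_at), a ubiquitin receptor, was lower on all 4 days. Control signals were 8.31, 8.03, 7.96 and 8.32. Spi-2 animals gave 6.94 to 7.77 (median 7.40) and Spi-7 animals 7.52, 7.43, 7.40, 7.15 and 7.16, all below Control, whereas Spi-21 (7.31 to 8.00, median 7.67) and Spi-60 (7.22 to 8.13, median 7.63) overlapped it. The differences were −0.78 ± 0.17 (adjusted p = 0.00411), −0.82 ± 0.18 (0.566-fold, adjusted p = 0.00931), −0.52 ± 0.16 (adjusted p = 0.0284) and −0.50 ± 0.16 (adjusted p = 0.033). The day 2 and day 7 calls held in every alternative tried. The day 21 call was lost without Control replicate 1, 2 or 4, without Spi-21 replicate 1 (−0.56 to −0.47, adjusted p 0.0504 to 0.088) and without Spi-21 replicates 1 to 3 (−0.50, adjusted p = 0.0983). The day 60 call was lost without Control replicate 1, 2 or 4 or Spi-60 replicate 3 or 7 (−0.54 to −0.44, adjusted p 0.0541 to 0.103). A further quantile normalization ended both late calls (adjusted p 0.118 and 0.119), and the 3′ covariate the day 60 call (−0.62, adjusted p = 0.115).

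Psmd14, the deubiquitinating subunit that removes the ubiquitin chain, is read by 2 probe sets. The first (1383429_at) had Control signals of 10.89, 10.74, 10.58 and 10.86, and Spi-2 animals (10.17 to 11.03, median 10.65) and Spi-7 animals (11.04, 10.91, 11.10, 10.67 and 9.42) lay around them. All Spi-21 animals (9.10 to 10.55, median 9.93) and all Spi-60 animals (9.55 to 9.98, median 9.91) lay below Control. It was lower by −0.87 ± 0.24 at day 21 (adjusted p = 0.0137) and −0.95 ± 0.24 at day 60 (0.519-fold, adjusted p = 0.00704). Without Spi-21 replicates 1 to 3 the day 21 difference was −0.56 (adjusted p = 0.144), and with the 3′ covariate the day 60 difference was −0.67 (adjusted p = 0.239). The second (1394082_at) had Control signals of 6.78, 6.61, 6.79 and 6.74 and was lower at day 2 (−0.58 ± 0.17, adjusted p = 0.0263), day 21 (−0.73 ± 0.16, adjusted p = 0.00287) and day 60 (−0.54 ± 0.16, adjusted p = 0.0181). At day 2 the first gave −0.11 ± 0.25 and was not called, so that the calls disagreed there. The second probe set lost its day 2 call without Control replicate 1, 3 or 4 or Spi-2 replicate 1 or 4 (−0.58 to −0.53, adjusted p 0.053 to 0.075) and its day 60 call without Control replicate 3 (−0.52, adjusted p = 0.0551), and kept its day 21 call in every alternative. The 3′ covariate ended its calls of days 2 and 60 (−0.50 and −0.39, adjusted p 0.0962 and 0.317), and the day 2 call was also lost without Spi-2 replicates 4 and 5 (−0.53, adjusted p = 0.102).

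The lid subunits Psmd12 and Psmd6 were lower on different days. Psmd12 (1392983_at) had Control signals of 10.78, 10.99, 10.56 and 10.79, and only the Spi-60 animals (9.76 to 10.33, median 10.20) stood wholly below them. It was lower at day 60 (−0.68 ± 0.16, 0.623-fold, adjusted p = 0.00351), and the call was lost only with the 3′ covariate. Psmd6 (1371851_at) had Control signals of 9.55, 9.63, 9.63 and 9.97 and Spi-2 signals of 8.25 to 9.54 (median 8.96), just below Control. It was lower at day 2 (−0.82 ± 0.25, adjusted p = 0.0333) and again at day 21 (−0.69 ± 0.24, adjusted p = 0.0401). Both calls were weak. Leaving out any Control animal, or Spi-2 replicate 1 or 4, ended the first (−0.87 to −0.70, adjusted p 0.056 to 0.107), and leaving out any Control animal, or Spi-21 replicate 1, 2, 3 or 7, ended the second (−0.74 to −0.58, adjusted p 0.0563 to 0.121). The 3′ covariate also ended both (adjusted p 0.106 and 0.0566), and without Spi-21 replicates 1 to 3 the day 21 difference was −0.44 (adjusted p = 0.279).

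Psmd2 (1398858_at), the large scaffold that receives shuttle proteins, went the other way. Control signals were 10.60, 10.25, 10.49 and 10.62, and all 8 Spi-60 animals (10.84 to 11.13, median 10.98) and all 5 Spi-7 animals (10.85, 10.86, 10.99, 10.78 and 10.95) were higher. The difference was 0.49 ± 0.11 at day 60 (1.41-fold, adjusted p = 0.00243), a call that every alternative kept. At day 7 it was 0.39 ± 0.12 and did not pass (adjusted p = 0.0675). The other non-ATPase probe sets (Psmd1, Psmd3, Psmd7 with 2 probe sets, Psmd8) were not called, with differences from −0.47 to 0.29. The 2 probe sets of Psmd7 varied independently (r = 0.08 with group means removed, 31 arrays).

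Among the assembly chaperones, Psmg1 (1371385_at), which helps to build the alpha ring, was lower on all 4 days. Control signals were 9.40, 8.91, 9.11 and 8.97. Spi-2 animals gave 7.90 to 8.57 (median 8.09), Spi-7 animals 8.55, 8.54, 8.39, 8.25 and 7.91, Spi-21 animals 7.52 to 8.79 (median 8.13) and Spi-60 animals 7.87 to 8.59 (median 8.12). Every injured animal lay below every Control animal. The differences were −0.95 ± 0.19 (0.518-fold, adjusted p = 0.00176), −0.77 ± 0.20 (adjusted p = 0.0281), −0.88 ± 0.18 (adjusted p = 0.00178) and −0.90 ± 0.18 (0.535-fold, adjusted p = 0.00109) at days 2, 7, 21 and 60. The day 7 call was lost without Control replicate 1 or 3 or Spi-7 replicate 4 or 5 (−0.77 to −0.67, adjusted p 0.0566 to 0.127), and the calls of days 7 and 60 were lost with the 3′ covariate (adjusted p 0.151 and 0.103). Its partner Psmg2 gave −0.42 ± 0.18 at day 2 (adjusted p = 0.157) and was not called.

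Psmg4 (1372686_at), another chaperone of the alpha ring that pairs with Psmg3, was higher at day 2 alone. Control signals were 7.13, 7.21, 7.43 and 7.12 and Spi-2 signals 7.38 to 7.93 (median 7.58), so that the ranges overlapped by 1 Control animal. The difference was 0.39 ± 0.11 (1.31-fold, adjusted p = 0.0205), and it was lost without Control replicate 1, 2 or 4 or Spi-2 replicate 1 (0.32 to 0.38, adjusted p 0.0503 to 0.0708) and with the 3′ covariate (0.33, adjusted p = 0.0822). Of the chaperones of the regulatory base, Psmd5 (1372267_at) was lower at day 21 (−0.79 ± 0.26, adjusted p = 0.0361). Its Control signals were 7.56, 7.26, 7.30 and 8.02 and its Spi-21 signals 5.87 to 7.68 (median 6.64), with replicates 1 and 3 the lowest. The call was lost in 13 of 19 alternatives, among them those without any 1 of the Control animals or Spi-21 replicate 1, 2, 3 or 7 (−0.88 to −0.63, adjusted p 0.0505 to 0.140), and without Spi-21 replicates 1 to 3 together the difference was −0.41 (adjusted p = 0.309). Psmd9 and Psmg3 were not called.

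The mean difference of all 6 measured alpha ring genes was negative at days 2, 21 and 60. On these days 1, 2 and 3 of them were called lower, against 4.98%, 10.7% and 9.89% of all probe sets. Psma7 (1371869_at) had Control signals of 9.01, 8.53, 8.58 and 9.11 and Spi-2 signals of 7.69 to 8.49 (median 8.26), without overlap. It was lower at day 2 (−0.59 ± 0.17, adjusted p = 0.0277) and again at day 60 (−0.56 ± 0.16, adjusted p = 0.0157). The first call was lost without Control replicate 1 or 4 or Spi-2 replicate 1 (−0.52 to −0.48, adjusted p 0.0681 to 0.115) and the second without Control replicate 1 or 4 (−0.50 to −0.46, adjusted p 0.0646 to 0.0781), and both with the 3′ covariate (−0.53 and −0.47, adjusted p 0.0844 and 0.237).

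Psma6 (1369930_at) had closely spaced Control signals of 10.65, 10.66, 10.75 and 10.57. Spi-2 (9.75 to 10.34, median 10.18), Spi-7 (10.46, 10.17, 10.26, 10.39 and 9.71) and Spi-60 animals (9.74 to 10.30, median 10.02) all lay below them, and Spi-21 animals ran from 9.40 to 10.71 (median 10.29). It was lower at day 21 (−0.53 ± 0.18, adjusted p = 0.0423) and again at day 60 (−0.62 ± 0.18, adjusted p = 0.0177), whereas the day 2 difference of the same size did not pass (−0.53 ± 0.19, adjusted p = 0.0793). The day 21 call was lost without any 1 Control animal or Spi-21 replicate 1, 2 or 3 (−0.56 to −0.42, adjusted p 0.0634 to 0.108), and the day 60 call without Control replicate 3 (−0.59, adjusted p = 0.058). Without Spi-21 replicates 1 to 3 together the day 21 difference was −0.20 (adjusted p = 0.412), and with the 3′ covariate the day 60 difference was −0.22 (adjusted p = 0.635). Psma1 was lower at day 21 (−0.52 ± 0.18, adjusted p = 0.039) and Psma3 at day 60 (−0.64 ± 0.20, adjusted p = 0.0264). The former was lost without Control replicate 2, 3 or 4 or Spi-21 replicate 1, 2 or 3 (adjusted p 0.0699 to 0.185) and the latter without Control replicate 2 or 3 or Spi-60 replicate 2 or 5 (adjusted p 0.0515 to 0.136). Psma1 gave −0.35 without Spi-21 replicates 1 to 3 (adjusted p = 0.273), and Psma3 gave −0.38 with the 3′ covariate (adjusted p = 0.455).

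The beta ring was mixed. Psmb7 (1367656_at), which carries the trypsin-like site, had Control signals of 8.32, 8.25, 8.26 and 8.47. Spi-2 animals gave 8.29 to 8.75 (median 8.59) and Spi-7 animals 8.54, 8.51, 8.73, 8.68 and 8.45, around the upper end of Control. Spi-21 animals gave 8.38 to 9.29 (median 8.80), only replicate 7 falling within Control, and Spi-60 animals gave 8.83 to 9.45 (median 9.08), all above it. Psmb7 was higher by 0.56 ± 0.13 at day 21 (1.47-fold, adjusted p = 0.0049) and by 0.76 ± 0.13 at day 60 (1.70-fold, adjusted p = 0.000283). The day 21 call was just lost without Spi-21 replicates 1 to 3 (0.41, adjusted p = 0.0509) and the day 60 call with the 3′ covariate (0.45, adjusted p = 0.0958). RefSeq names 2 pseudogenes of this gene.

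Psmb5, which carries the chymotrypsin-like site, was higher at day 60 (0.33 ± 0.10, adjusted p = 0.0262), and without Control replicate 2 or 3 it did not pass (adjusted p 0.0743 to 0.1), nor with the 3′ covariate (0.23, adjusted p = 0.362). Psmb1 (1398812_at), a beta subunit with no active site, was lower at day 2 (−0.54 ± 0.16, adjusted p = 0.0269) and again at day 21 (−0.48 ± 0.15, adjusted p = 0.0246). Its Control signals were 9.55, 9.51, 9.45 and 9.77, its Spi-2 signals 8.56 to 9.22 (median 9.10) and its Spi-21 signals 8.44 to 9.41 (median 9.20), both clear of Control. The day 2 call was lost without Control replicate 1, 2 or 4 or Spi-2 replicate 1 (−0.55 to −0.44, adjusted p 0.0526 to 0.095) and with the 3′ covariate (−0.41, adjusted p = 0.129), the day 21 call without Control replicate 1, 2 or 4 (−0.50 to −0.41, adjusted p 0.052 to 0.0882) or Spi-21 replicates 1 to 3 (−0.27, adjusted p = 0.221). Psmb2, Psmb3 and Psmb4 were not called, with differences from −0.20 to 0.29.

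The 3 inducible catalytic subunits, which replace the constitutive ones in the immunoproteasome, were higher at day 2 and on no other day. Psmb9 (1370186_at) had Control signals of 5.91, 5.89, 5.82 and 5.79. The 6 Spi-2 animals gave 6.37, 6.20, 6.08, 7.75, 7.85 and 6.22, all above Control, with replicates 4 and 5 far above the other four. The difference was 0.89 ± 0.26 (1.86-fold, adjusted p = 0.0299). Psmb8 (1367786_at) gave 6.26, 5.53, 5.56 and 5.66 in Control and 7.10, 5.96, 6.00, 7.21, 7.23 and 6.23 in Spi-2 animals, high in replicates 1, 4 and 5 and within the Control range in the rest (0.87 ± 0.28, 1.83-fold, adjusted p = 0.0496). Psmb10 (1374033_at) gave 6.56, 7.04, 7.10 and 7.05 in Control and 7.37, 6.87, 7.48, 7.77, 7.85 and 7.31 in Spi-2 animals (0.50 ± 0.15, 1.42-fold, adjusted p = 0.0277). Only Psmb9 had no overlap with Control.

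These 3 calls rested on few animals, and those of Psmb8 and Psmb9 were also lost with the 3′ covariate (adjusted p 0.132 and 0.0811). Without Spi-2 replicates 4 and 5, an alternative chosen after the values had been seen, the differences were 0.57, 0.37 and 0.32 for Psmb8, Psmb9 and Psmb10, and none passed (adjusted p 0.285, 0.264 and 0.217). Leaving out Spi-2 replicate 4 or 5 alone ended all 3 calls, as did Control replicate 1 for Psmb9 and Psmb10, Control replicates 2, 3 and 4 for Psmb8 and Psmb9, and Spi-2 replicate 1 for Psmb8. Over these fits the adjusted p lay between 0.0965 and 0.136 for Psmb8, 0.0607 and 0.0858 for Psmb9, and 0.0677 and 0.150 for Psmb10. Spi-2 replicates 4 and 5 also had the highest summed level of the microglia and macrophage markers in their group, 11.07 and 10.93, followed by replicate 1 with 10.44, and the other three lay between 9.87 and 9.97. Replicate 4 alone had a high summed level of the 2 measured endothelial markers, 9.83, against 6.91 to 7.17 in the other Spi-2 animals. The interferon genes Isg15 and Mx1 were highest in replicate 5 (10.74 and 9.44), followed by replicate 4 (7.79 and 6.62). At day 60, replicate 8 had the highest level of the microglia list (11.13) and the highest Psmb8 (7.14) and Psmb9 of its group. Spi-21 replicate 4 (11.07) likewise had the highest Psmb8 of its group, 6.69, but its Psmb9 (6.20) lay below that of replicate 1 (6.52). Both animals had lower Psmb9 than Spi-2 replicates 4 and 5 (7.75 and 7.85) at similar levels of the list. At day 7, replicate 1 had the highest level of the list (10.65), but replicate 4 the highest Psmb8 (6.38 against 6.15). The lowest level of the list in that group (9.39) and its highest Psmb9 (6.20) belonged to Spi-7 replicate 5. The part of other cells in these values was not tested.

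**Figure D4:**
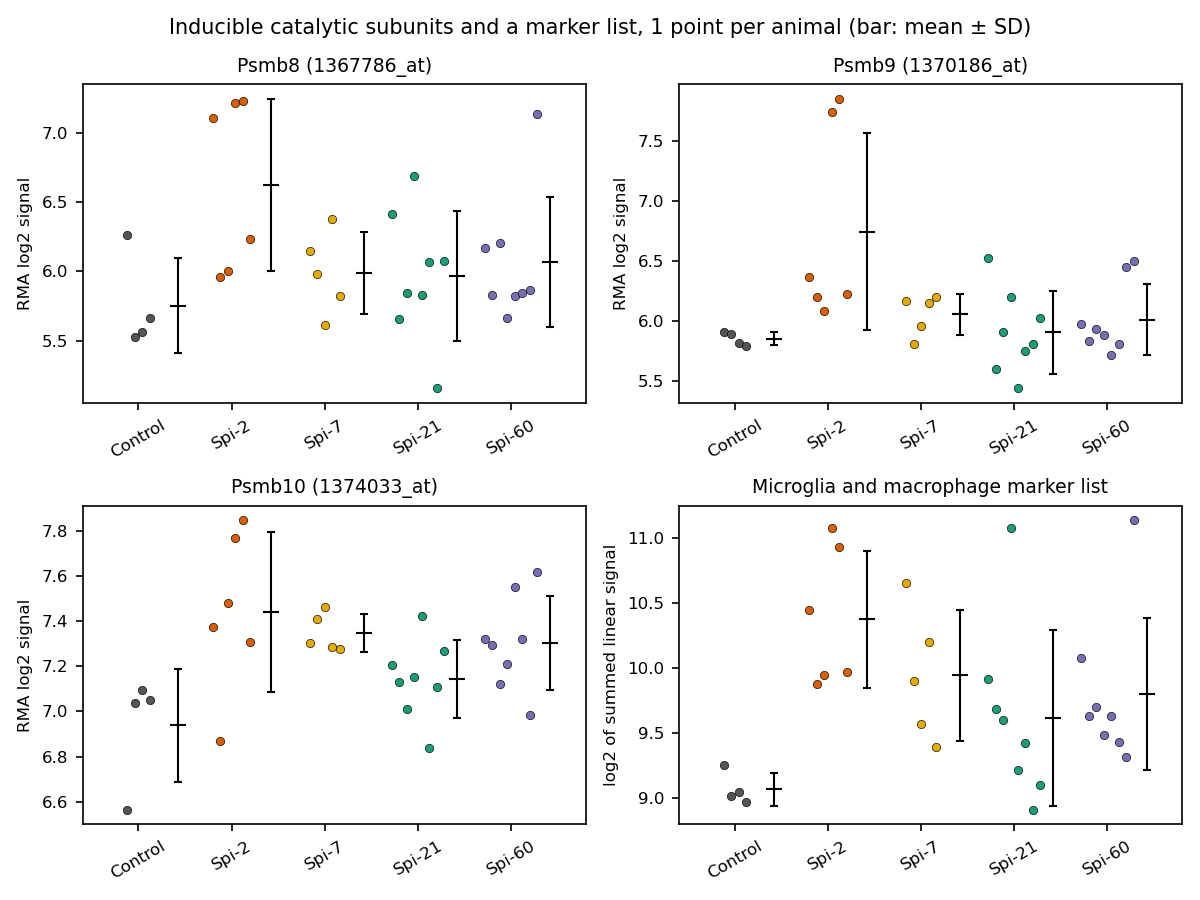
RMA log2 signal of Psmb8, Psmb9 and Psmb10 and the log2 summed signal of the microglia and macrophage marker list (y axes) by group (x axis), 1 point per animal with mean ± SD; each panel has its own scale. Spi-2 replicates 4 and 5 are the top points of their group in all 4 panels.

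The promoters of Psmb8 and Psmb9 are shown because both genes were higher in the same Spi-2 animals and lie on chromosome 20 beside Tap1 and Tap2, the peptide transporter genes. The Psmb8 window is chr20:4656982-4657281 (− strand) and the Psmb9 window chr20:4668750-4669049 (+ strand), with the 5 motifs in capitals as above.
Psmb8: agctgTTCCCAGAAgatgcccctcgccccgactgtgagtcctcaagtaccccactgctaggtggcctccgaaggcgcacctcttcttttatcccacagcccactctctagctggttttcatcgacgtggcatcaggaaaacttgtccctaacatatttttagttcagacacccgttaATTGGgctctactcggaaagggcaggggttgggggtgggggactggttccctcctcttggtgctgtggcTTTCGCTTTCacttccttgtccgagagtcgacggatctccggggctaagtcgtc
Psmb9: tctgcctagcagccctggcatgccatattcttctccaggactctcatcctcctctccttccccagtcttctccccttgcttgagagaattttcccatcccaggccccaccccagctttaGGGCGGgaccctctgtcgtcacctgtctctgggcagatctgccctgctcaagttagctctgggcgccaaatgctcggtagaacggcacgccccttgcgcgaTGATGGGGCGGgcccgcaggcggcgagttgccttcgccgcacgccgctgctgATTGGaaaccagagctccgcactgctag
The Psmb8 window held such an interferon-response core on the other strand, whose first base lay 4 before the start site, and a TTCNNNGAA whose first base lay 245 before it. That of Psmb9 held neither, and that of Psmb10 held 2 such cores. They stood in 18.9% of the 37 proteasome promoters, against 3.92% of all and 3.00% of those on the array. Tap1, the neighbour of Psmb9, was named after its values had been seen. It gave 5.69, 5.75, 5.21 and 5.76 in Control and 5.78, 5.74, 5.60, 6.16, 6.75 and 5.75 in Spi-2 animals, again with replicates 4 and 5 the highest, and it was not called (0.36 ± 0.20, adjusted p = 0.293).

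No activator was called on any day. Psme2, with Psme1 a subunit of the interferon-inducible cap, gave 8.33, 8.52, 8.30 and 8.51 in Control and 8.17, 8.67, 8.28, 9.22, 9.59 and 8.18 in Spi-2 animals, with replicates 4 and 5 again the highest (0.27 ± 0.23, adjusted p = 0.537). Psme1 gave 6.35, 6.19, 6.11 and 5.63 in Control and 6.00 to 7.04 (median 6.36) in Spi-2 animals, with replicate 4 the highest (0.40 ± 0.24, adjusted p = 0.336). Psme4, the large activator of the nucleus, was read by 3 probe sets with differences between −0.40 and 0.09 over the 4 days, which disagreed in sign at days 2, 7 and 60. The inhibitor Psmf1 (1389387_at) was higher late. Control signals were 8.07, 8.31, 8.01 and 8.72, Spi-21 signals 8.44 to 9.24 (median 8.90) and Spi-60 signals 8.40 to 9.38 (median 8.95), overlapping Control only through its replicate 4. The differences were 0.57 ± 0.19 (1.49-fold, adjusted p = 0.0337) and 0.63 ± 0.19 (1.55-fold, adjusted p = 0.0183). The first was lost without Control replicate 1, 2 or 3 or Spi-21 replicate 3 or 6 (0.49 to 0.58, adjusted p 0.0546 to 0.124), the second without Control replicate 1 or 3 (0.55 to 0.56, adjusted p 0.0695 to 0.0842). The first was lost as well without Spi-21 replicates 1 to 3 together (0.62, adjusted p = 0.0759) and the second with the 3′ covariate (0.85, adjusted p = 0.0533).

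The early and late groups were also compared without crossing the studies. In the F-test over Control, Spi-2 and Spi-7 (15 arrays, adjusted p under 0.05), 6 members passed against 5.75% of all probe sets. They were Psmc5, Psmg1, Psmc1, Psmd4, Psmd14 (1394082_at) and Psmb1, each lower in both injured groups, with adjusted p from 0.000425 to 0.0272. Between Spi-60 and Spi-21 no member was called by limma (0 of 47, against 0.0697% of all), 3 passed an unadjusted p under 0.05, against 12.1% of all, and the smallest adjusted p was 0.275. The differences ran from −0.34 (Psmd12) to 0.46 (Psmd5). Between Spi-7 and Spi-2 none was called either, as on the whole array (0%), and 2 members, Psmb8 and Psmb9, passed the unadjusted p with differences of −0.63 and −0.69, against 3.56% of all.

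Because all 8 Spi-60 animals had a larger GAPDH 3′ to 5′ difference than any Control animal, the model was also fitted with that difference as a covariate. At day 60 only Psmc5 was then lower and only Psmd2 higher, 1 member each, while the calls over all probe sets went from 9.89% to 1.32% lower and from 7.2% to 0.751% higher. The median of the regulatory probe sets at day 60 went from −0.47 to −0.26 and that of the core probe sets from −0.17 to −0.05. Most day 60 differences shrank, but those of Psmd4 (−0.50 to −0.62) and Psmf1 (0.63 to 0.85) grew while their calls were lost. Since the GAPDH values of Control and Spi-60 animals did not overlap, this fit cannot tell day 60 apart from RNA shortening. At day 21, where GAPDH values of the groups overlapped, 8 members were lower and 2 higher. Of 45 calls of a member on a day, 19 were kept with the covariate and none changed sign.

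**Figure D5:**
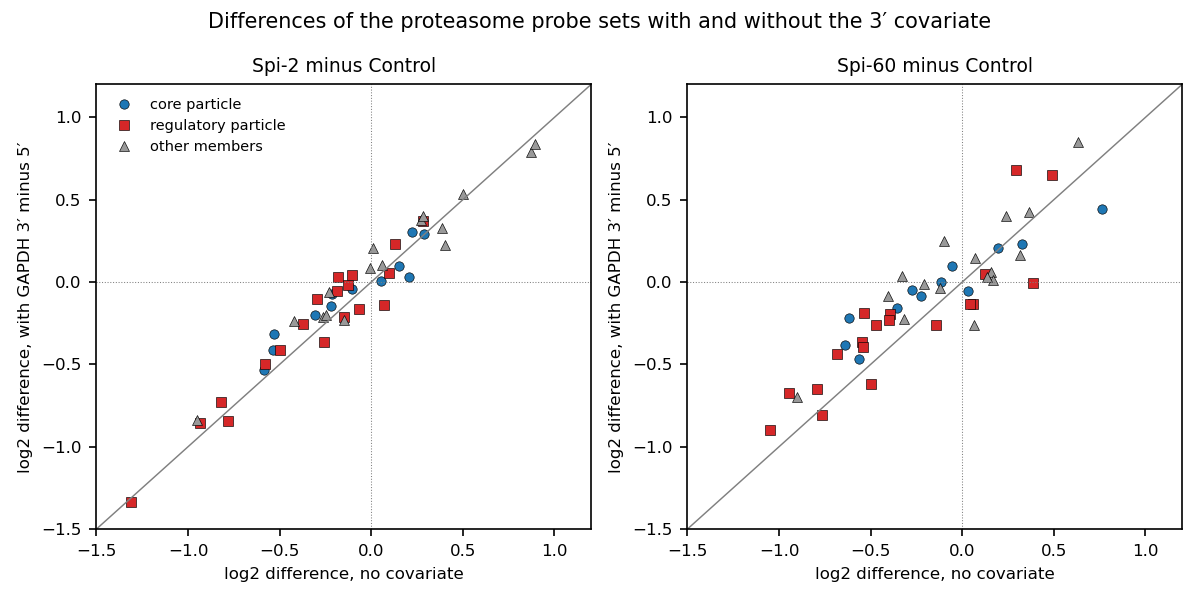
Log2 difference from Control of each proteasome probe set with the GAPDH 3′ to 5′ difference as a covariate (y axis) against the difference without it (x axis), for Spi-2 (left) and Spi-60 (right); the line marks equality. Most Spi-60 points lie closer to 0 on the y axis, while Psmc5 keeps its place (−0.76 without and −0.81 with the covariate).

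A list of further proteasome genes outside the family spelling was read through 20 genes with 33 probe sets. It holds the regulatory subunits Adrm1 and Sem1 and the core chaperone Pomp, besides ubiquitin-activating enzymes, shuttle factors and the Vcp unfoldase with its cofactors. Of these genes 5, 2, 3 and 4 had a lower and 1, 0, 4 and 3 a higher leading probe set at days 2, 7, 21 and 60, with median differences of 0.07, 0.06, −0.07 and −0.14. Of all probe sets 4.98%, 1.67%, 10.7% and 9.89% were lower and 3.9%, 0.914%, 5.94% and 7.2% higher on these days. Nsfl1c (1398772_at), a cofactor of Vcp, was lower at day 2 (−0.93 ± 0.18, adjusted p = 0.000995) and again at day 7 (−0.85 ± 0.18, adjusted p = 0.00838), from 8.18 to 8.36 in Control and from 7.04 to 7.73 in Spi-2 animals, without overlap. Uba1 (1367472_at), the main ubiquitin-activating enzyme, was higher at day 21 (0.70 ± 0.17, adjusted p = 0.00691) and again at day 60 (1.00 ± 0.17, adjusted p = 0.000308). Without Spi-21 replicates 1 to 3 its day 21 difference was 0.39 (adjusted p = 0.0759), and with the 3′ covariate its day 60 difference was 0.35 (adjusted p = 0.151). Uba6, another ubiquitin-activating enzyme, was lower at days 21 and 60 on each of its probe sets (1379471_at, 1391236_at and 1393086_at). For 1391236_at, Control signals were 7.15 to 7.87 and Spi-21 signals 5.69 to 7.09, and every alternative kept its day 21 call. The day 60 calls of Uba6 were all lost with the 3′ covariate. Nfe2l1 (1373278_at), the transcription factor that renews proteasome subunits when the protease is blocked, was higher at day 21 (0.52 ± 0.11, adjusted p = 0.00168) and again at day 60 (0.44 ± 0.11, adjusted p = 0.00506), while its other probe set was called on no day. The second of these calls did not pass with the 3′ covariate (0.49, adjusted p = 0.0595). Sem1, a small lid subunit, passed the F-test but no contrast with Control, being highest in Spi-7 (9.43 ± 0.15, SD, n = 5) and lowest in Spi-21 (8.95 ± 0.14, SD, n = 8). Adrm1 (1367868_at), also a regulatory subunit, was called higher at days 21 and 60. All injured animals lay above its Control range of 6.08 to 6.17, the lowest being Spi-2 replicate 4 at 6.20. The day 21 call was lost without Spi-21 replicates 1 to 3 (0.35) and with groups compared alone. The day 60 call was lost with the 3′ covariate (0.18) and without Control replicate 2. Adrm1 and Uba6 were named after their values had been seen.

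Genes of class I antigen presentation and interferon signalling were read through 17 genes with 21 probe sets. At day 2, 4 genes were higher and 0 lower, and at days 7, 21 and 60 the counts were 0 and 0, 1 and 1, and 1 and 1. Of all probe sets 3.9%, 0.914%, 5.94% and 7.2% were higher and 4.98%, 1.67%, 10.7% and 9.89% lower at days 2, 7, 21 and 60. Erap1 (1368356_a_at), which trims peptides, was lower at day 21 (−0.69 ± 0.23, adjusted p = 0.0355) and again at day 60 (−0.81 ± 0.23, adjusted p = 0.0138), while its other probe set was called on no day. The first call was lost in 8 of 19 alternatives (adjusted p 0.0501 to 0.134) and the second in 3 of 18, the 3′ covariate among them (adjusted p = 0.218). Mx2 (1387283_at) was higher at day 2 (0.89 ± 0.28, adjusted p = 0.0451) and Tapbp (1369726_at), which loads peptides with the transporter, at day 2 (0.34 ± 0.10, adjusted p = 0.0279), day 21 and day 60. Without Spi-2 replicates 4 and 5 the day 2 differences were 0.57 for Mx2 (adjusted p = 0.201) and 0.28 for Tapbp (adjusted p = 0.138), and the day 60 call of Tapbp was lost with the 3′ covariate (adjusted p = 0.115). Irf9, a part of the interferon-activated transcription complex, gave 0.50 ± 0.24 at day 2 (adjusted p = 0.207). Also higher at day 2 were Ifngr1 (1369956_at) and Mx1 (1371015_at), and each of these calls was lost in 8 of 17 alternatives. The day 2 call of Mx2 was lost in 10 of 16 alternatives and that of Tapbp in 9 of 17, the 3′ covariate among them for both.

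Within groups the subunits varied together. With group means removed, the median correlation over the 31 arrays was 0.43 among the core genes (66 pairs), 0.34 among the regulatory genes (105 pairs) and 0.41 between core and regulatory genes (180 pairs), while that of all pairs of probe sets was 0.00. Core genes thus varied with regulatory genes about as closely as with each other. All pairs share the same arrays, their RNA quality and their normalization. The pairs of all probe sets include dim ones and were not matched to the proteasome genes for signal.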

How the data were processed

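Each array (Affymetrix, rat genome) held amplified RNA of the laser-dissected tail motor neurons of 1 rat. The authors deposited log2 values: per their methods, probe sets outside the Ensembl annotation were discarded, background was compensated, arrays were quantile normalized and RMA summaries were taken, then compensated and normalized again (RMA is also named in the submitters' processing notes). From 12919 deposited probe sets, 6 Affymetrix controls were removed. Of the 12913 tested, 11880 had 1 gene symbol, 320 several and 713 none. Group means were fitted in limma 3.58.1 (R 4.3.3) over all 31 arrays, with a moderated F-test (false discovery rate 0.02) and 2-sided contrasts with Control (adjusted p under 0.05), both adjusted by Benjamini-Hochberg over all probe sets. Control, Spi-2 and Spi-7 were also fitted alone. Values were given for members called on any day or by F, at most 20 by smallest F-test p, and for all inducible, activator and inhibitor probe sets; others that were called are named with their counts, and of the other lists the members with the smallest F-test p are named. Where lists were counted by gene, the brightest probe set was used. The members and lists were chosen with earlier results of these data known. The fit was tested on simulated data. The number of arrays limits the precision. Promoters were read from RefSeq (GRCr8). Alternatives were a further quantile normalization, leaving out the dimmest 25% of probe sets, the GAPDH 3′ to 5′ difference as covariate, array weights, a replicate block, groups compared alone and leaving out animals.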

Additional observations from a re-analysis of the deposited data

Results flagged for a closer look

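Single animals stood apart from the rest of their group in 10 of the 145 groups examined over 29 proteasome probe sets, where about 7.25 are picked out by chance at 1 in 20 (the gap to the nearest animal against the range of the group). Spi-2 replicate 1 was lowest of its group for Psma6 (9.75, next 10.12), Psma7 (7.69, next 8.19) and Psmb1 (8.56, next 9.01). Spi-7 replicate 5, an array with a narrow spread of signals, was lowest for Psmb5 (11.43, next 11.82), Psmd12 (10.30, next 10.63), the Psmd14 probe set 1383429_at (9.42, next 10.67) and the Psme4 probe set 1368817_at (7.45, next 8.32). Control replicate 1 was lowest for Psmb10 (6.56, next 7.04) and Spi-2 replicate 4 lowest for Psmd2 (10.48, next 10.76). Spi-60 replicate 8, which also had the highest microglia and macrophage level of its group, was highest for Psmb8 (7.14, next 6.21). The cause was not tested for any of them.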

How the results depend on the processing

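Of 1023 values recomputed under alternatives for 56 results, 810 kept their direction and side of the threshold and none reversed. A further quantile normalization gave 1 member higher on day 7, with 5 lower and 4 higher on day 21. The 3′ covariate gave 4 lower and 1 higher (day 2), 1 higher (day 7), and 1 lower and 1 higher (day 60). Array weights gave 21 by the F-test and 6 lower and 3 higher at day 7. Groups compared alone gave 0 higher at day 2 and 6 lower at day 7. Chosen after the data were seen, leaving out Spi-21 replicates 1 to 3 together gave 3 lower (Psmc5, Psmg1 and Psmd14 1394082_at) and 0 higher at day 21, and leaving out Spi-2 replicates 4 and 5 together 5 lower and 1 higher at day 2. Leaving out 1 animal gave 7 to 14 by the F-test (7 without Control replicate 1), and for days 2, 7, 21 and 60 lower counts of 4 to 8 (4 without Control replicate 1 or 4 or Spi-2 replicate 1), 2 to 3, 5 to 14 (5 without Control replicate 2 or 4, 7 without Control replicate 3 or Spi-21 replicate 1) and 9 to 13. Higher counts were 1 to 4 (1 without Control replicate 1, 2 or 4 or Spi-2 replicate 4 or 5, 2 without Control replicate 3 or Spi-2 replicate 1), 0 to 0, 1 to 3 (1 without Control replicate 1, 2 or 3 or Spi-21 replicate 3 or 6) and 2 to 5 (2 without Control replicate 3), with 4 to 9 within days 0, 2 and 7, and 0 to 0 between days 60 and 21. The cause was not tested.

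Replicate numbers did not pair the animals: over 51 pairs of equal number the median correlation of deviations was −0.04 (−0.33 to 0.35), 11 exceeded 0.1 and 2 of 31 arrays matched their own number best. With the replicate number as a block, 1 member was higher at day 21 and 1 passed within days 0, 2 and 7. The block ended the calls of Psmd6 (days 2 and 21, adjusted p 0.0543 and 0.059) and Psmf1 (days 21 and 60, adjusted p 0.0817 and 0.0507).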
